A study of Mus musculus with 34 samples.

Results

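The Iroquois homeobox genes were followed through the brain of the newborn mouse. The 6 genes Irx1 to Irx6 were found by matching the RefSeq accession of every probe on the array to a gene symbol, and all of their probes were kept. They are 6 of the 20145 genes with a matched symbol, and they had 7 probes, 1 for each gene except Irx2, which had 2. All 7 probes are among the 34186 probes flagged well above background somewhere in every series, and every comparison below was fitted over those 34186.

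Iroquois genes encode transcription factors of the TALE class of homeodomain proteins. In mammals they lie in clusters that arose by duplication, and they are known for dividing the early neural tube along its length: Irx3 meets the forebrain factor Six3 at a border within the future diencephalon, and several family members mark the caudal diencephalon, the midbrain and the hindbrain. Irx4 is best known from the heart ventricle, and Irx5 and Irx6 from retinal bipolar cells.

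The study built maps of gene expression by slicing whole brains in 3 planes and measuring each slab of tissue on its own array. All animals were male C57BL/6J mice 3 days after birth, with no treatment and no altered allele. The coronal series has 15 fractions from 1 mouse, the horizontal series 8 fractions from another and the sagittal series 11 fractions from the last, 34 in all. A fraction pooled 100 slices of 5 µm, a slab 500 µm wide, and 2 such slabs were joined in each of the outermost sagittal fractions (1 and 11). Each position was therefore measured once, in 1 animal, and the spread behind every p-value is that between neighbouring fractions of that animal and not between animals. In such bulk tissue, fewer cells of a type and less RNA per cell cannot be told apart.

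The labels number the fractions without naming the ends, so the ends were read from marker genes. In the coronal series 8 of the 12 hindbrain markers, mostly Hox genes, were highest in fraction 2, 3 of 6 cerebellar markers in fraction 1, 3 of 5 midbrain markers in fraction 6, 5 of 6 cortical markers in fraction 13 and 6 of 6 olfactory bulb markers in fraction 15. Fraction 1 is called caudal and fraction 15 rostral on that basis. In the horizontal series 9 of 12 hindbrain markers peaked in fraction 6 and 4 of 6 hypothalamic markers in fraction 8, so fraction 8 is called ventral. Between 49.9% and 62.5% of the spots on an array were well above background, and none was saturated. Values are log2 signals after subtraction of each array's 75th percentile, so 0 is the level of that percentile. A probe's values can be compared between fractions, but levels of different probes cannot be compared.

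Irx1, Irx2 and Irx4 lie next to each other in that order on chromosome 13, and Irx3, Irx5 and Irx6 on chromosome 8. Sequence upstream of the start was at hand for 3 of the genes. The 250 bases are given from RefSeq on build GRCm38.p6, 5′ to 3′ on the strand of the gene with each CG pair in capitals, because 2 of these genes, Irx2 and Irx3, turned out alike in profile although they lie in different clusters, while Irx4 differed from its own cluster.
Irx2, chr13:72628570-72628819, plus strand: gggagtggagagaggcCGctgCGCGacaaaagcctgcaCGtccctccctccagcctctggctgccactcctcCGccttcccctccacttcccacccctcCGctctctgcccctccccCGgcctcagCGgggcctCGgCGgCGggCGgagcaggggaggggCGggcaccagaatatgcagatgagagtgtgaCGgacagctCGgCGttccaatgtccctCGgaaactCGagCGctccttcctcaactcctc
Irx4, chr13:73260247-73260496, plus strand: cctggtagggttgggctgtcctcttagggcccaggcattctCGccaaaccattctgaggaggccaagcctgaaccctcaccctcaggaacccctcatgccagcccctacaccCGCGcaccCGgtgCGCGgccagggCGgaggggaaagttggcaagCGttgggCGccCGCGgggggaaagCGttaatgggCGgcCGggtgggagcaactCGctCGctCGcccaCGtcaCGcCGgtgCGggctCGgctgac
Irx3, chr8:91801655-91801904, minus strand: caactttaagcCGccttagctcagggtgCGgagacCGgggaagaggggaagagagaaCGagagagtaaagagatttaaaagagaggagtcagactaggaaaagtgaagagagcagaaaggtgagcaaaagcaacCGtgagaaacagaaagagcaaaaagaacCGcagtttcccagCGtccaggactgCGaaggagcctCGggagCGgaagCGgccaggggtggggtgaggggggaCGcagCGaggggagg
The Irx2 window was 68.4% G and C with 19 CG pairs, the Irx4 window 68.8% with 22 and the Irx3 window 56.0% with 13. The medians over the same 250 bases of 32851 promoters in the table were 52.4% and 6 pairs. No window held the Iroquois motif ACANNTGT, the TCF/LEF motif CTTTGA, the homeodomain motif TAATTA or the TATA box TATAAA on either strand, which 6.31%, 13.8%, 4.84% and 12.4% of all those promoters held.

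Along the coronal axis every Iroquois probe was highest between fractions 3 and 5 and low from fraction 10 to the rostral end. Irx6 was low in fractions 1 and 2 as well. Of all tested probes, 14.1% had their highest value in fractions 3 to 5, against 7 of the 7 Iroquois probes. Those fractions lie between fraction 2, where most hindbrain markers peaked, and fraction 6, where most midbrain markers did. The choroid plexus markers peaked in fraction 3 (4 of 4), as did Irx1 and the brighter Irx2 probe, and their part in the Iroquois values was not tested.

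**Figure D1:**
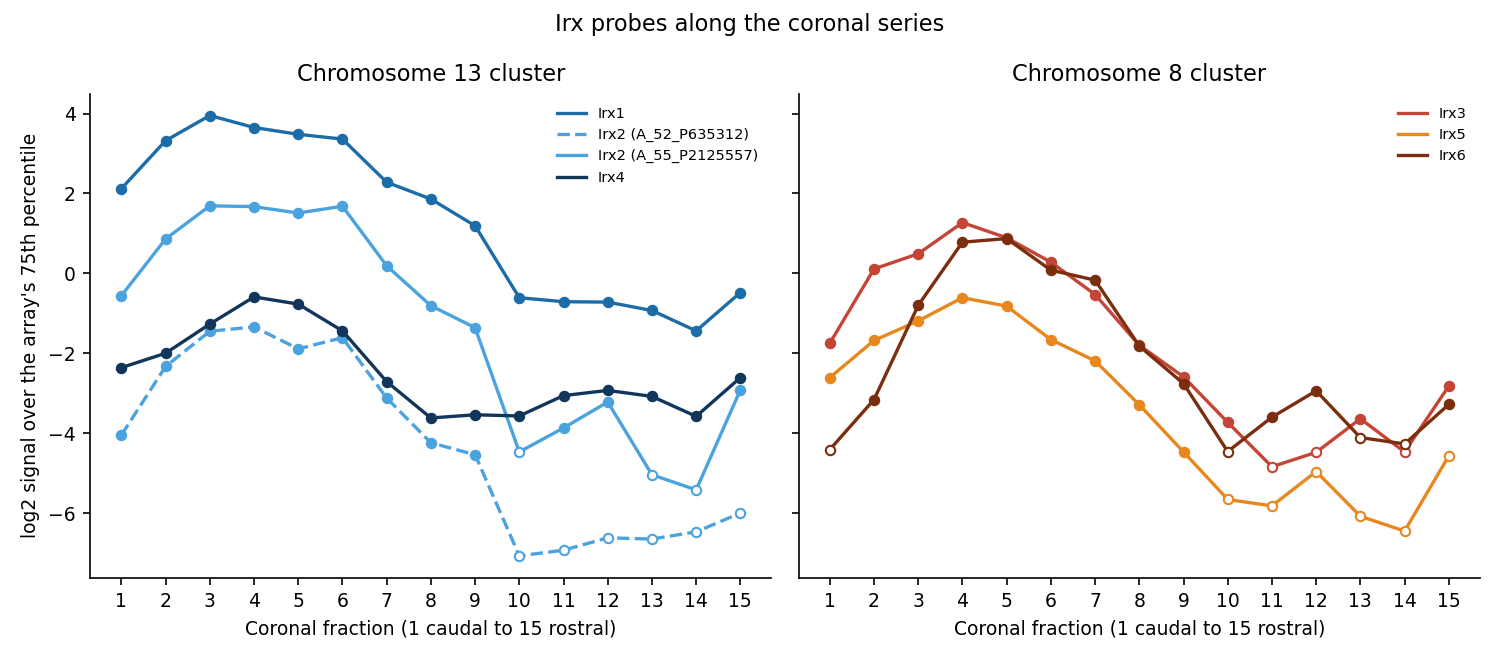
Log2 signal of the 7 Irx probes (vertical axis, relative to each array's 75th percentile) in the 15 coronal fractions (horizontal axis), with the chromosome 13 genes on the left and the chromosome 8 genes on the right. Filled points were well above background and open points were not. All probes are highest in fractions 3 to 5 and low from fraction 10, and Irx6 alone starts from a value not above background in fraction 1.

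In the chromosome 13 cluster, Irx1 was well above background in all 34 fractions. Its coronal values ran from -1.44 in fraction 14 through a median of 1.86 to 3.95 in fraction 3. It stayed between 3.32 and 3.95 from fraction 2 to fraction 6, was 2.28, 1.86 and 1.19 in fractions 7, 8 and 9, and lay between -1.44 and -0.48 in fractions 10 to 15. The drop from 1.19 to -0.61 between fractions 9 and 10 was the largest difference between any neighbouring coronal fractions for this probe.

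Irx2 was read by a brighter probe, A_55_P2125557, and a dimmer one, A_52_P635312. The brighter probe read -0.56 in fraction 1, 1.69 in fraction 3, between 1.51 and 1.68 in fractions 4 to 6 and -1.36 in fraction 9. In fractions 10, 13 and 14 it was not well above background, and in fractions 11, 12 and 15 it read -3.87, -3.22 and -2.92. The dimmer probe followed the same course, from -4.05 in fraction 1 to -1.34 in fraction 4, and was not well above background in any fraction from 10 to 15. The probes had an r of 0.965 over the 34 fractions, and the brighter one stands for the gene where only 1 is used, since it was detected in 29 fractions and the other in 25.

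Irx4 had the flattest profile of the family. It was well above background in all 34 fractions, with coronal values from -3.62 in fraction 8 through a median of -2.71 to -0.59 in fraction 4. It had already reached its low level in fractions 8 to 10 (-3.62, -3.54 and -3.57) and was not lower farther forward, at -3.06, -2.93, -3.08, -3.58 and -2.61 in fractions 11 to 15. The SD of its 34 values was 0.83, above the SD of 93.4% of tested probes, whereas those of the other 6 probes lay between 1.62 and 2.30 and each exceeded that of at least 99.4%.

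In the chromosome 8 cluster, Irx3 read -1.75 in fraction 1 and 1.27 in fraction 4, and was lower in each fraction from there to -2.59 in fraction 9. Farther forward it was well above background in fractions 10, 13 and 15 (-3.73, -3.64 and -2.82) and not in 11, 12 and 14. Irx5 read -2.61 in fraction 1 and -0.61 in fraction 4, was -4.47 in fraction 9, and was not well above background in any of fractions 10 to 15. Both curves had 1 maximum, in fraction 4, and the levels beyond fraction 9 were at or near the limit of detection.

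Irx6 began farther forward than the rest. It was not well above background in fraction 1 (-4.41), read -3.16 and -0.80 in fractions 2 and 3, and reached 0.78 and 0.87 in fractions 4 and 5. In fraction 1 its linear signal was 2.56% of its highest fraction and in fraction 2 it was 6.09%, while the other 6 probes stood at 12.4% to 29.3% and at 37.5% to 64.7% in those fractions. It read -2.76 in fraction 9 and lay between -4.46 and -2.94 in fractions 10 to 15, where fractions 11, 12 and 15 were well above background.

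The caudal fractions 1 to 6 were set against the rostral fractions 10 to 15 (6 against 6) with limma. All 7 probes were higher caudally at an adjusted p below 0.05, a call that 13.5% of tested probes received in that direction. The median difference was 4.16 (log2) over the 7 probes and -0.10 over all tested probes. Irx5 and the dimmer Irx2 probe had only a bound on the rostral side, and with both at their bounds the median was 3.09. The brighter Irx2 probe, Irx3 and Irx6 were well above background in 3 of the 6 rostral fractions, so their differences rest in part on values near the limit of detection. Irx1 averaged 3.31 against -0.81, a difference of 4.13 ± 0.28 (SE, adjusted p = 5.29e-06) or 17.4-fold. The brighter Irx2 probe differed by 5.30 ± 0.48 (adjusted p = 1.87e-05), and Irx3 averaged 0.21 against -4.00, a difference of 4.21 ± 0.45 (adjusted p = 5.34e-05).

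Irx5 averaged -1.43 against a rostral mean of -5.59 that was nowhere well above background, so it was at least 8.52-fold higher caudally (adjusted p = 3.96e-05). Such a bound sets the bright mean against the dimmest signal called above background on each dim array. By the same bound the dimmer Irx2 probe was at least 5.33-fold higher (means -2.11 and -6.62, adjusted p = 1.09e-05). Irx4 showed the smallest difference, 1.74 ± 0.25 (adjusted p = 0.000326) or 3.33-fold. Irx6 differed by 2.67 ± 0.58 (adjusted p = 0.00355), and it was the 1 probe whose caudal and rostral fractions overlapped, through fractions 1 and 2. For the other 6 every caudal fraction exceeded every rostral one, as it did for 3.78% of tested probes.

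Slide and position were tied in this series. Fractions 1 to 8 were hybridised on 1 slide, and all of the rostral fractions on others. With slide as a fixed block, which ties the ends together only through fractions 7, 8 and 9, the differences were 1.09 to 4.40 and none passed (adjusted p 0.150 to 0.772), where 17 probes of all those tested did. With slide as a random block all 7 passed, with adjusted p of 7.37e-06 to 0.00467. Within a slide, fractions 4 to 6 exceeded fractions 7 and 8 by 1.43 to 2.23 in all 7 probes. Across fractions 9, 10 and 11, also on 1 slide, Irx1 and Irx4 were detected throughout, and fraction 9 differed from the mean of 10 and 11 by 1.85 for Irx1 and by -0.22 for Irx4. The other 5 probes were well above background in fraction 9 and not in both of 10 and 11. With an offset of 50 added to the signal the differences shrank to between 0.90 and 3.76 and all 7 still passed.

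The hindbrain list moved with this result: 12 of 12 measured markers were higher in fractions 1 to 6, with a median difference of 5.02. So were 6 of 6 cerebellar, 3 of 5 midbrain, 4 of 6 thalamic and 2 of 4 choroid plexus markers. In the other direction, 5 of 6 cortical and 5 of 6 olfactory bulb markers were called lower. The same held for 4 of 6 striatal, 3 of 6 hypothalamic and 1 of 6 thalamic markers. Of all tested probes, 13.5% were called higher and 24.6% lower. The summed level of the hindbrain list was 2.20 to 6.49 (log2) in fractions 1 to 6 and -1.75 to -0.25 in fractions 10 to 15, where 7 of the 12 were nowhere well above background. The summed midbrain list overlapped between these blocks (0.23 to 4.55 and 1.61 to 4.73), though 3 of its 6 genes were nowhere well above background in fractions 10 to 15. Averaged over its genes relative to the series mean, that list ran from -1.94 to 3.34 in fractions 1 to 6. In fractions 10 to 15 that average ran from -1.24 to -0.12. The part these tissues have in the Iroquois difference was not tested.

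Steps between neighbouring blocks of 3 fractions placed the decline. From fractions 1-3 to 4-6 all 7 probes had the higher mean in 4-6, and Irx6 was the 1 that passed, with means of -2.79 ± 1.83 and 0.58 ± 0.44 (SD, n = 3 each) and a difference of -3.37 ± 0.82 (SE, adjusted p = 0.0405). Of tested probes, 48.5% had the higher mean in 1-3, and 1.94% were called higher in 4-6. Leaving out any 1 of fractions 1, 2, 4, 5, 6, 8, 11 and 14 lifted the adjusted p of Irx6 to between 0.0536 and 0.142, and testing with no detection filter lifted it to 0.0785. Whether Irx6 differs from the other members in this step was not tested.

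From fractions 4-6 to 7-9 all 7 probes had the lower mean in 7-9, by 1.72 to 2.45, as did 43.9% of tested probes by any amount. Only Irx4 passed, falling from -0.93 ± 0.45 to -3.29 ± 0.51 (SD, n = 3 each; difference 2.36 ± 0.35, adjusted p = 0.0250), in a step where 0.132% of tested probes were called higher in 4-6. The other 6 probes had unadjusted p-values below 0.05, as did 9.2% of tested probes, and adjusted p-values of 0.123 to 0.426. Irx4 no longer passed without fraction 4, 5, 8 or 9 (adjusted p 0.122 to 0.139) or with slide as a fixed block (difference 2.23, adjusted p = 0.197).

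From fractions 7-9 to 10-12 Irx1 fell from 1.78 ± 0.55 to -0.68 ± 0.06 (SD, n = 3 each), a difference of 2.45 ± 0.40 (adjusted p = 0.0241). The brighter Irx2 probe fell by 3.19 ± 0.67 (adjusted p = 0.0442) and the dimmer one from -3.97 to a mean not well above background, at least 1.61-fold (adjusted p = 0.0344). That made 3 of 7 probes, against 0.632% of tested probes called higher in 7-9. Irx3 differed by 2.71 ± 0.64 (adjusted p = 0.0571) and Irx6 by 2.08 ± 0.82 (adjusted p = 0.159), and Irx5 had a rostral mean below detection (at least 2.54-fold, adjusted p = 0.0805). Irx3 passed when the variance was modelled on the mean (adjusted p = 0.0329) and without fraction 1, 10 or 15 (0.0337, 0.0331 and 0.0468).

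Irx4 stood apart in this step, with means of -3.29 and -3.19 and a difference of -0.10 whose 95% interval ran from -0.87 to 0.67. That interval lies below the lower end of the Irx1 interval, 1.59 to 3.32, measured on the same arrays, but the difference between the genes was not itself tested. The calls of Irx1 and of both Irx2 probes were lost without fraction 7, 8, 11 or 12 (adjusted p 0.103 to 0.174) and with slide as a fixed block (adjusted p = 0.943). Both Irx2 calls were also lost without fraction 2, 4, 5 or 6 (0.0528 to 0.0724), that of the brighter probe without fraction 9 or 14 (0.0627 and 0.0501) and that of the dimmer one with the offset of 50 (0.576). They were lost too when arrays were scaled on their median (adjusted p 0.0511 and 0.0604) or with no detection filter (0.0622 and 0.0894).

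From fractions 10-12 to 13-15 no Iroquois probe passed in limma (0 of 7, and 0 of 7 at an unadjusted p below 0.05), where 3.26% of tested probes passed in either direction and 17.3% had an unadjusted p below 0.05. Irx5 and the dimmer Irx2 probe were not well above background on either side, so the step gives no measure of them, and Irx1 and Irx4 were the ones detected in all 6 fractions. The differences ran from -0.71 to 0.60, and the intervals reached from -2.10 to 2.06.

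**Figure D2:**
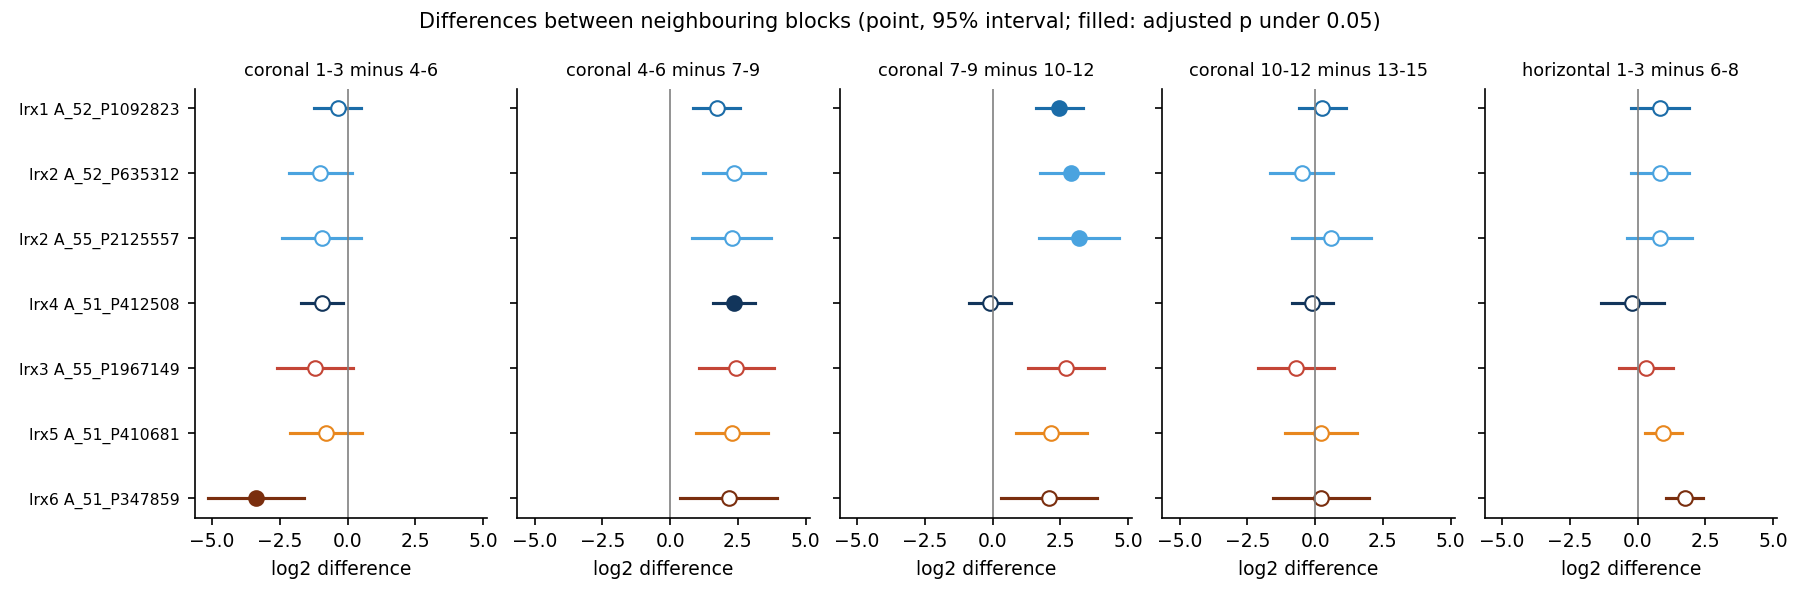
Log2 difference between blocks of fractions for the 7 Irx probes (rows), for the 4 coronal steps and the horizontal ends (panels). Points are limma estimates, bars their 95% intervals, and filled points have an adjusted p below 0.05. The 4-6 to 7-9 step is between 1.72 and 2.45 for every probe, while Irx4 is near 0 in the 7-9 to 10-12 step.

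The rostral limit was read in 2 ways, from the signal relative to each probe's highest coronal fraction and from detection. The last fraction holding at least 50% of the highest linear signal was fraction 6 for Irx1, both Irx2 probes, Irx3, Irx4 and Irx6, and fraction 5 for Irx5, which held 48.0% in fraction 6. Irx3 sat on the line with 50.4% in fraction 6, and its limit became fraction 5 under median or quantile scaling.

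At 10% of the highest signal the genes spread out. Irx3, Irx5 and Irx6 reached fraction 8 (12.0%, 15.5% and 15.5%) and held 6.91%, 6.88% and 8.06% in fraction 9. Irx1 and the Irx2 probes reached fraction 9, with 14.8%, 10.9% and 12.1%, and had 4.26%, 1.89% and 1.40% in fraction 10. Irx4 never fell below 12.2%. At this cut the chromosome 8 genes ended 1 fraction, or 500 µm, caudal to Irx1 and Irx2, an order that neither the 50% limit nor detection gave. Each limit is a single reading in 1 animal, and with the offset of 50, which raises dim values, the 10% limit became fraction 15 for both Irx2 probes, Irx3, Irx5 and Irx6.

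By detection, the unbroken run of fractions well above background ended at fraction 9 for both Irx2 probes, Irx5 and Irx6 and at fraction 10 for Irx3, and did not end for Irx1 and Irx4. Irx5 and the dimmer Irx2 probe were detected in every one of fractions 1 to 9 and in none of 10 to 15, a pattern found in 0.14% of tested probes. The dimmest signal called above background was -5.42 in fraction 9 and between -4.81 and -4.21 in fractions 10 to 15. The fraction 9 readings of Irx5 (-4.47) and the dimmer Irx2 probe (-4.54) would lie below that level in fractions 12 to 14. Detection on the 2 sides of this limit is therefore not on an equal footing. With the scanner's laxer flag, positive and significant, Irx5 was also detected in fractions 10 to 13 and 15 and the dimmer Irx2 probe in 11 and 15.

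Irx1 and Irx4, detected in both, each read 0.96 higher in the rostral end fraction 15 than in fraction 14, and 60.4% of tested probes were higher there, with a median difference of 0.12. The brighter Irx2 probe, Irx3 and Irx6 were well above background in fraction 15 and not in 14, and Irx5 and the dimmer Irx2 probe in neither. This contrast was picked after the values were seen. Fraction 14 had the fewest spots well above background of all arrays, 29598 against 32940 in fraction 15. The dimmest signal called above background was -4.21 in fraction 14 and -4.59 in fraction 15. Irx3 (-4.47) and Irx6 (-4.27) lay between those levels in fraction 14, so detection in these fractions is not on an equal footing. Fraction 15 also had higher values of 6 of 6 olfactory bulb, 6 of 6 hypothalamic, 7 of 7 meningeal and fibroblast, 10 of 12 hindbrain and 3 of 4 choroid plexus markers, and lower values of 5 of 6 cortical markers. Of the 12 hindbrain markers, 2 were well above background in fraction 14 and 4 in fraction 15. Most of the 10 hindbrain differences therefore involve a value not well above background. The summed level went from 2.90 to 4.08 for the choroid plexus list, from -1.75 to -0.54 for the hindbrain list, from 1.02 to 1.68 for the hypothalamic list, from 7.28 to 7.79 for the meningeal list and from 6.31 to 6.63 for the olfactory bulb list. Their part in the Iroquois values was not tested.

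Along the horizontal axis all 7 probes were well above background in all 8 fractions and the ranges were narrower. Irx1 ran from 0.71 in fraction 8 through a median of 2.17 to 2.81 in fraction 3, and Irx5 from -3.60 in fraction 8 through -2.44 to -1.99 in fraction 2. Irx3 was highest in fraction 5 (-0.32) and lowest in fraction 8 (-2.17).

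Irx6 had the largest excess of fractions 1-3 over fractions 6-8 among the 7 probes, though it did not pass. Whether it differs from the other members in this was not tested. Irx6 read -0.11, 0.85 and 0.16 in fractions 1 to 3, and between -2.23 and -1.37 in fractions 4 to 8. Irx4 had 2 high stretches, -2.21 and -2.31 in fractions 1 and 2 and -2.03 to -1.86 in fractions 5 to 7, around -3.28 and -3.02 in fractions 3 and 4. Fractions 3 and 4 were on another slide than the rest of this series. In that dip the effect of slide cannot be told apart from that of position.

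The dorsal fractions 1-3 were compared with the ventral fractions 6-8. None of the 7 probes passed in limma, against 0.231% of tested probes called higher dorsally, and 2 of the 7 had an unadjusted p below 0.05, as did 16.9% of tested probes. Irx6 came closest, with 0.30 ± 0.49 against -1.44 ± 0.07 (SD, n = 3 each), a difference of 1.75 ± 0.29 (SE, adjusted p = 0.0552). It passed when the variance was modelled on the mean (adjusted p = 0.0188) and with the offset of 50 (adjusted p = 0.0164). Irx5 differed by 0.95 ± 0.29 (adjusted p = 0.178). The interval for Irx4 ran from -1.36 to 0.97 around -0.19, and that for Irx3 from -0.70 to 1.30 around 0.30. The 12 hindbrain markers had a median difference of -4.00 here, the opposite sign to the 0.82 of the Iroquois probes, and none of the 12 passed. The dorsal fractions were not alike in that list. Relative to its mean over the series it was 1.48 in fraction 1, -3.33 in fraction 2, -3.95 in fraction 3 and 0.19 in fraction 8. Its summed level overlapped, at -3.31 to 2.61 in fractions 1-3 and 1.43 to 4.02 in 6-8.

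Along the sagittal axis 6 of the 7 probes were highest in fraction 6 or 7, Irx4 was highest in fraction 4, and each was lowest in fraction 1 or 2. Irx1 read -1.21 and -0.95 in fractions 1 and 2, 2.92 in fraction 6, and 0.94 and -0.04 in fractions 10 and 11, around a median of 2.28. Irx5 was not well above background in fractions 1, 2 and 11 and read -1.72 in fraction 6. Irx4 had 2 maxima here, -1.37 in fraction 4 and -1.51 in fraction 8, with -2.21 and -2.26 in fractions 6 and 7.

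**Figure D3:**
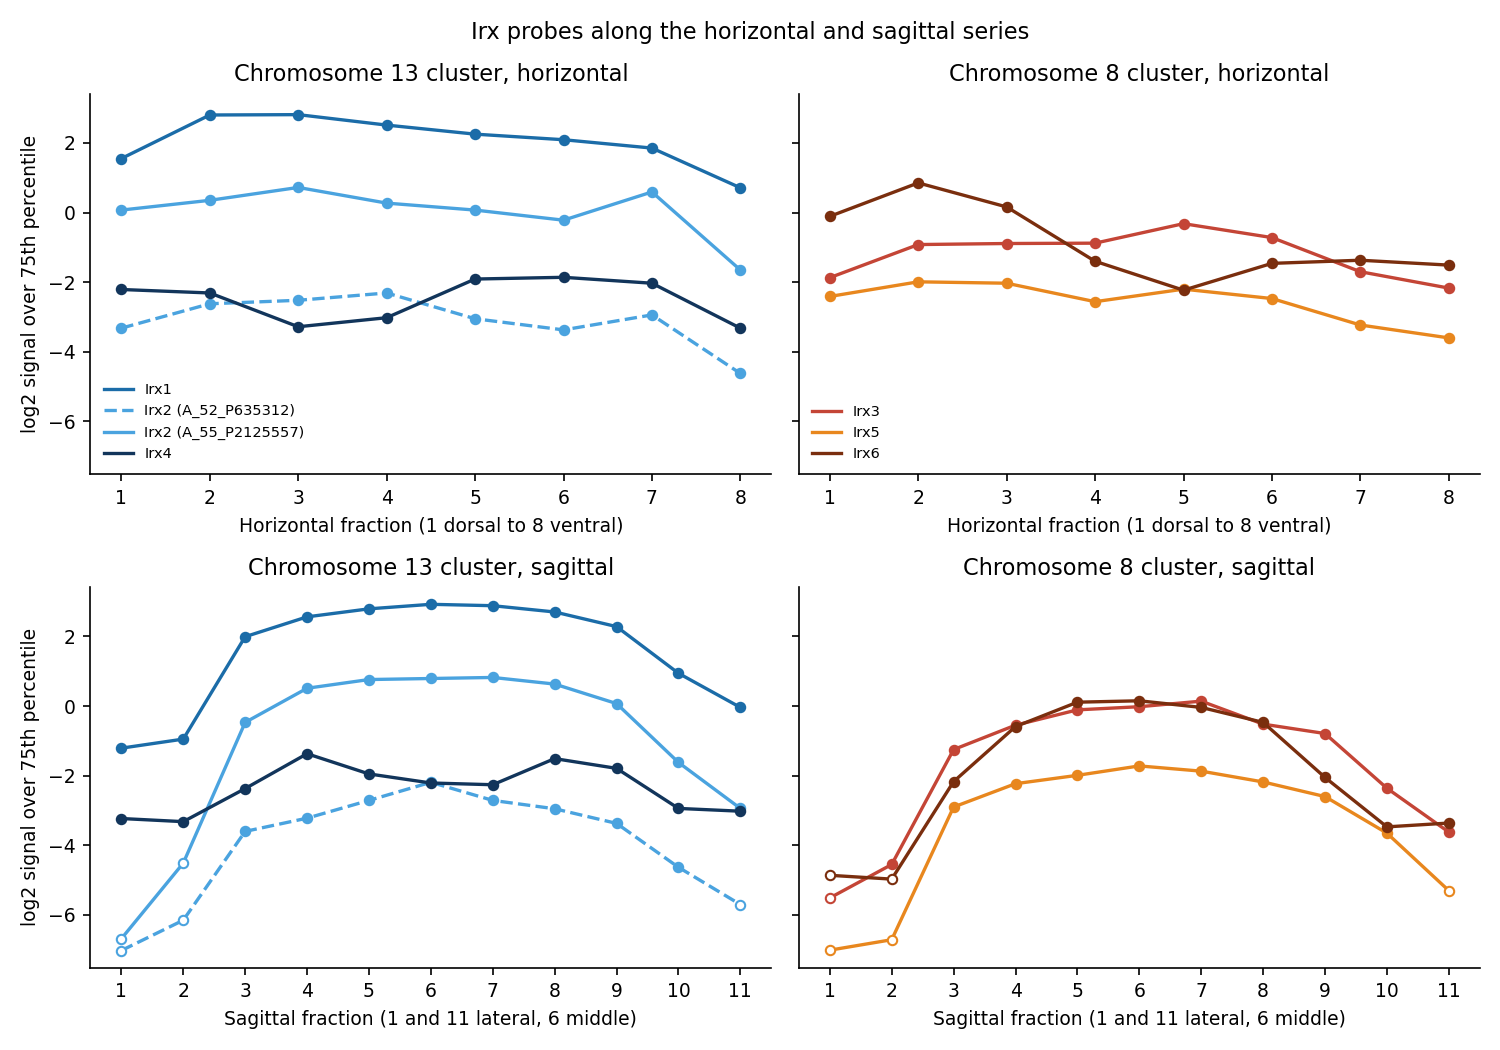
Log2 signal of the 7 Irx probes (vertical axes) in the 8 horizontal fractions (top) and the 11 sagittal fractions (bottom), with the chromosome 13 genes on the left and the chromosome 8 genes on the right. Filled points were well above background and open points were not. Irx6 is highest in horizontal fractions 1 to 3, and Irx4 has a maximum on each side of the sagittal middle.

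The sagittal values were fitted against the distance, in fractions, from fraction 6. All 7 probes fell with distance at an adjusted p below 0.05, as 9.97% of tested probes did. The slopes per fraction were -0.83 ± 0.14 for Irx1 (SE, adjusted p = 0.00193), -1.26 ± 0.25 for the brighter Irx2 probe, -1.04 ± 0.17 for Irx3, -1.0 ± 0.19 for Irx5 and -1.08 ± 0.14 for Irx6 (adjusted p = 0.000509). Irx4 had the shallowest slope, -0.28 ± 0.09 (adjusted p = 0.0390), and lost its call without fraction 1, 2, 3, 5, 10 or 11 (adjusted p 0.0524 to 0.118), under median or quantile scaling (0.0571 and 0.0609), with no detection filter (0.0738) and with slide as a fixed or random block (0.492 and 0.104). With slide as a fixed block 3 of the 7 slopes passed, those of Irx3, Irx6 and the dimmer Irx2 probe, and over fractions 2 to 9, which shared a slide, the slopes were -0.18 for Irx4 and -0.76 to -1.21 for the rest. Of the hindbrain markers 10 of 12 fell with distance, of the midbrain markers 5 of 5, of the olfactory bulb markers 6 of 6, of the cerebellar markers 5 of 6 and of the thalamic and hypothalamic markers 4 of 6 each. The summed hindbrain list was 3.64 to 3.67 in fractions 5 to 7 and -2.37 to 1.88 in fractions 1, 2, 10 and 11, and the part of these tissues in the slopes was not tested.

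The sides were not alike. Irx1, Irx3 and Irx4, detected in both, read higher in fraction 10 than in its mirror fraction 2, by 1.89, 2.19 and 0.38, and Irx1 and Irx4 read higher in 11 than in 1, by 1.17 and 0.22. The other 4 probes were well above background in fraction 10 and not in 2. In fraction 11 the brighter Irx2 probe, Irx3 and Irx6 were well above background, in fraction 1 they were not, and Irx5 and the dimmer Irx2 probe were in neither. Of tested probes, 48.3% and 45.9% were higher in 10 and in 11. The pairs nearer the middle differed by less for Irx1, 0.29, 0.13 and 0.09 from the outside in. Marker lists differed too, relative to each list's mean over the series. The hindbrain list was at -3.83 in fraction 2 and 0.23 in fraction 10, and the cerebellar list at -0.75 and 0.45. The cortical list (0.61 and 0.36) and the striatal list (1.06 and 0.65) were lower in fraction 10. Their part in the Iroquois values was not tested. Fractions 1, 2 and 10 with 11 were on 3 different slides, and the labels do not place the midline. Slide, side and an off-centre cut cannot be told apart here.

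The profiles of the 6 genes were then compared with each other, with 1 probe per gene. The correlations are descriptions, since the 34 points come from 3 animals, neighbouring fractions share tissue and the arrays share slides. Irx1, Irx2, Irx3 and Irx5 formed a tight group across both clusters, with r between 0.950 and 0.975 over the 34 fractions. Irx6 had r of 0.807 to 0.844 with those 4 and Irx4 had 0.724 to 0.773, and Irx4 and Irx6 were least alike (r = 0.628).

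By their medians, pairs within a cluster were no more alike than pairs across. The 6 pairs within a cluster had r of 0.724 to 0.972 with a median of 0.829, and the 9 pairs across clusters 0.628 to 0.975 with a median of 0.839. Both medians rest on pairs that include Irx6. Among Irx1, Irx2, Irx3 and Irx5 the pairs within a cluster had r of 0.971 and 0.972, and those across had 0.95 to 0.975. The medians were 0.811 and 0.85 in the coronal series, 0.945 and 0.957 in the sagittal series and 0.392 and 0.407 in the horizontal series. In the horizontal series the pairs ranged from -0.191 (Irx4 and Irx6) to 0.834 (Irx1 and Irx5).

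**Figure D4:**
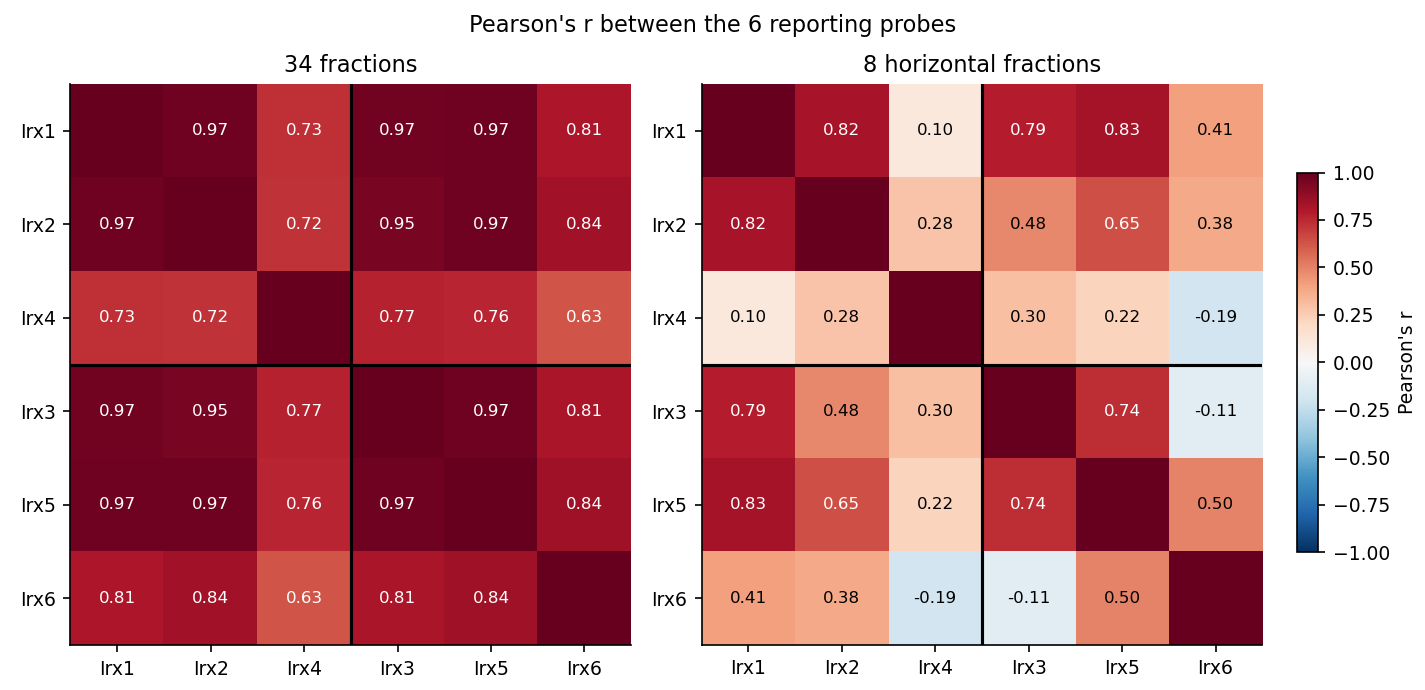
Pearson's r between the reporting probes of the 6 Irx genes over all 34 fractions (left) and over the 8 horizontal fractions (right), with colour from -1 to 1. Black lines separate the chromosome 13 genes from the chromosome 8 genes. High values join Irx1, Irx2, Irx3 and Irx5 across the lines, while Irx4 and Irx6 are lower, most of all in the horizontal series.

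Searched against all genes with a matched symbol, the 3 most similar profiles to each of Irx1, Irx2, Irx3 and Irx5 were those of the other 3. Irx5, for example, was closest to Irx2 (r = 0.975), Irx1 (0.972) and Irx3 (0.972). At an r of at least 0.85, Irx1 had 105 probes with it, Irx3 had 87, Irx5 had 65, Irx2 had 63, Irx6 had 9 and Irx4 had 4, where the median tested probe had 1. Of tested probes, 83.4% to 88.3% had fewer than the first 4 of these genes, 65.0% fewer than Irx6 and 57.5% fewer than Irx4. The 3 closest to Irx6 were Gata3 (r = 0.943), Tal1 (0.933) and Pax7 (0.926), transcription factors of midbrain neurons, of which Gata3 and Tal1 act in GABAergic lineages. Gata3 read -4.03 in coronal fraction 1 and 2.63 in fraction 5, a likeness already contained in its choice by r over these same fractions. The r of Gata3 with Irx6 was 0.98 in the coronal series and 0.575 in the horizontal series. The 3 closest to Irx4 were Vwa5b2 (r = 0.872), Fndc5, which encodes the precursor of irisin (0.869), and Ppfia4, a liprin of the synapse (0.851).

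The other TALE homeobox genes had no common direction. Of 12 such genes tested, 3 were higher in coronal fractions 1 to 6 than in 10 to 15 and 4 were lower, with a median difference of -0.22. Over all tested probes, 13.5% were called higher and 24.6% lower in that contrast. Meis1, a Hox cofactor, was higher by 2.05 ± 0.25 (SE, adjusted p = 0.000124), with its highest value in fraction 2, and Tgif1 and Tgif2, repressors in TGF-beta signalling, by 0.52 and 0.56. Meis2, another Hox and Pbx cofactor, was at a difference of -1.55 and peaked in fraction 14, and Mkx, or Mohawk, an Iroquois-related gene outside the clusters, was at -2.03 (adjusted p = 2.41e-05).

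Of 14 midbrain and hindbrain patterning genes tested, 11 were higher caudally and none lower, against those same 13.5% and 24.6%, with a median difference of 2.40. En2, which patterns the midbrain and cerebellum, was higher by 5.06 ± 0.41 (adjusted p = 9.23e-06), while Wnt1, Lmx1b and Fgf8 did not pass (-0.16, -0.17 and 0.79). The 16 tested forebrain boundary and rostral genes split, 7 higher caudally and 8 lower. Tcf7l2, a Wnt effector that marks the thalamus, was still 2.95, 2.97 and 2.41 in fractions 7 to 9, where each Iroquois probe was at 48.4% or less of its highest signal, and dropped by 2.80 ± 0.60 to fractions 10-12 (adjusted p = 0.0451). Six3 ran the other way from Irx3, from -4.89 in fraction 1 to 1.95 in fraction 11, where Irx3 read -4.84. Neither of these low values was well above background. Six3 dropped by 3.60 ± 0.88 to fractions 13-15 (adjusted p = 0.0464).

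**Figure D5:**
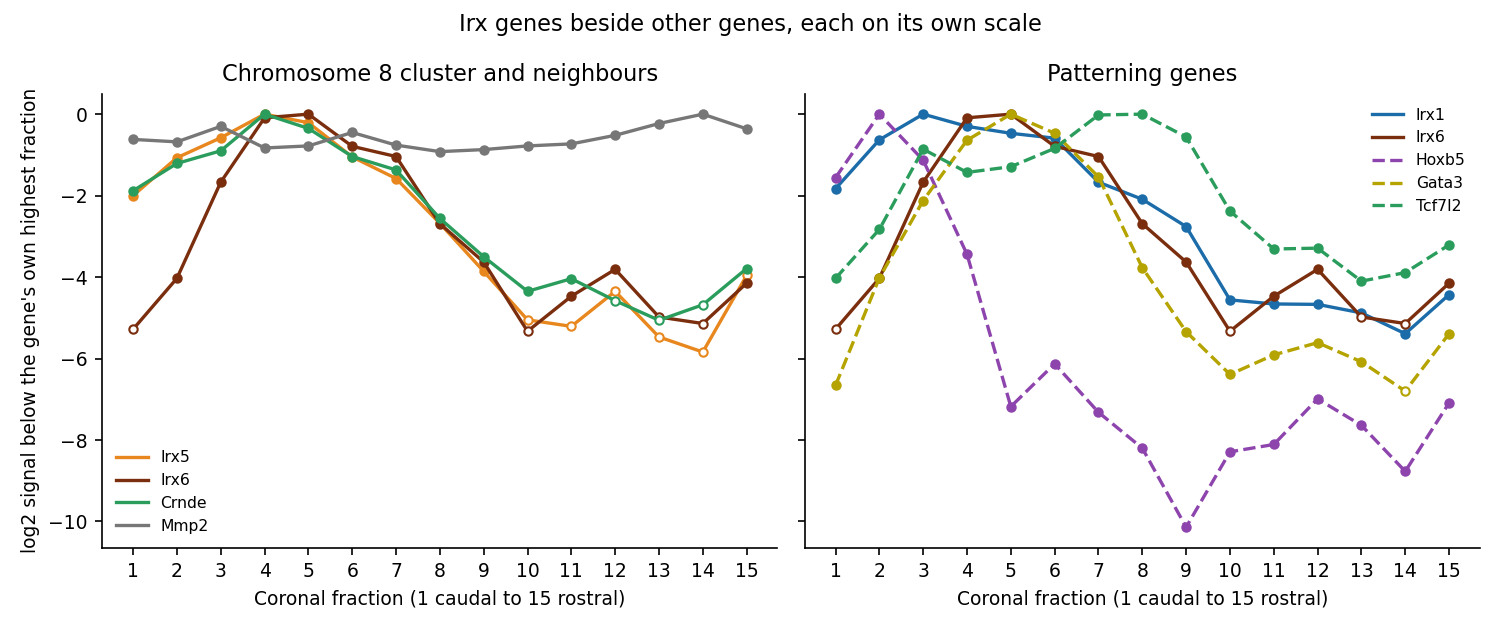
Log2 signal of single probes along the 15 coronal fractions, each below that probe's own highest fraction (0), for Irx5 and Irx6 with the neighbours Crnde and Mmp2 (left) and for Irx1 and Irx6 with Hoxb5, Gata3 and Tcf7l2 (right). Filled points were well above background and open points were not. Crnde runs with Irx5, Mmp2 is flat, and Gata3 runs with Irx6.

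Of 8 genes that flank the clusters, 3 passed between the coronal ends, near the 38.0% of tested probes that passed in either direction. Of the 2 nearest protein-coding genes on each side, Fto and Rpgrip1l beside Irx3 and Mmp2 and Lpcat2 beside Irx6 were not called (differences of -0.03, 0.26, -0.17 and 0.02). Beside Irx1, Ice1 did not pass (0.03), and Adamts16, a secreted protease, was higher caudally by 1.47 ± 0.20 (adjusted p = 0.000251), with its highest value in fraction 1 and an r of 0.713 with Irx1. Beside Irx4, the mitochondrial genes Ndufs6 and Mrpl36 were lower caudally (differences of -0.41 and -0.44, adjusted p = 0.00972 and 0.00153). The gene table lists 20 other genes inside the clusters, of which 2 had a matched probe. The probe of Gm20554, an RNA gene without a known protein, was not well above background in any fraction.

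Crnde, a long non-coding RNA gene between Irx3 and Irx5, was chosen for mention with its values already seen. It read -1.72 in coronal fraction 1, 0.16 in fraction 4, -3.34 in fraction 9 and -4.90 in fraction 13. The last value lay below the dimmest signal called above background on that array (-4.37), so it is not a measured level. Crnde was higher caudally by 3.52 ± 0.35 (adjusted p = 3.07e-05), a difference that rests in part on that value. Its probe was detected in 31 of the 34 fractions. Its r over the 34 fractions was 0.957 with Irx5, 0.950 with Irx3 and 0.810 with Irx6. Whether its probe reads only this transcript was not tested.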

How the data were processed

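The authors hybridised RNA of each of the 34 fractions to 1 single-colour Agilent SurePrint G3 Mouse GE array and, per the file headers, read the scans out in Feature Extraction 10.10.1.1 (Agilent). The deposited scanner files hold the intensity of each spot: a processed signal with background subtracted and not scaled between arrays, a median signal, a median local background and flags. The authors also deposited log2 values for 43199 probes, of which 99.9% matched, to within 0.02, the log2 of the processed signal after 1 shift per array. These deposited log2 values served as an alternative.

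Groups are the 3 cutting planes of the labels. Probe intensities were put on the log2 scale and each array's 75th percentile was subtracted. A probe counted as detected where the scanner flagged its spot well above background. Each Irx probe is spotted once per array. Symbols came from a RefSeq table of GRCm38.p6 by accession, for 26582 of 55681 probes. That table was used for names, chromosome and gene order. The array files use mm9 positions, so non-coding RNA probes known only by position were not placed in the clusters.

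Fits used limma 3.58.1 (lmFit and eBayes) in R 4.3.3 over 34186 probes, with blocks of 3 fractions as groups or the distance from sagittal fraction 6 as a covariate, and Benjamini-Hochberg adjustment over all of them. Passed, or called, means an adjusted p below 0.05. Tables were made with pandas 2.3.3, numpy 2.4.6 and scipy 1.17.1 in Python 3.11.15. The fits were tested on simulated data. The precision is limited by 1 array per position.

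Named are all Irx probes, the genes of set lists (other TALE genes, patterning genes, cell type markers), the 3 genes most alike in profile to each Irx gene, and the 2 nearest protein-coding genes beside each cluster. For a gene with several probes the one detected in most fractions was used. The members and lists were chosen with earlier results of these data known. Alternatives were other scalings, a background correction with an offset of 50 (on the median signal, as no mean signal was in the files), the authors' log2 values, no detection filter, a variance trend, slide as a block and leaving out fractions.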

Additional observations from a re-analysis of the deposited data

Results flagged for a closer look

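Each of the 7 Irx probes was examined in the horizontal series for a fraction lying apart, that being the 1 series with few enough fractions for that test. Both Irx2 probes had such a value in the ventral fraction 8, at -4.62 for A_52_P635312 and -1.65 for A_55_P2125557. The gap to the next fraction was 0.541 and 0.601 of the whole range, above Dixon's critical value for 8 values. Fraction 8 was also the lowest for Irx1, Irx3, Irx4 and Irx5, and chance gives such a value in about 1 of 20 groups.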

How the results depend on the processing

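No paired analysis was possible because the fraction numbers shared by the series are positions along different axes of different mice, and every contrast lies within 1 mouse. With 1 animal per plane, no setting speaks to variation between animals.

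The number of the 7 Irx probes that passed changed as follows. With slide as a fixed block it was 0 for coronal 1-6 against 10-15 (7 before), 0 for 4-6 against 7-9 (1 before), 0 for 7-9 against 10-12 (3 before) and 3 for the sagittal slope (7 before). Under normexp with an offset of 50 it was 4 for 4-6 against 7-9 and 1 for the horizontal ends (0 before), and with a variance trend 1 for the horizontal ends. With no detection filter it was 0 for 1-3 against 4-6 (1 before) and 1 for 7-9 against 10-12, and with median scaling 1 for the latter. Leaving out single fractions gave 0 to 1 for 1-3 against 4-6, 0 to 3 for 4-6 against 7-9, 0 to 4 for 7-9 against 10-12 and 6 to 7 for the sagittal slope. The causes were not tested. Over all tested probes, the counts that passed moved by over 1.5 times as follows. For the coronal ends 13004 became 17 with slide as a fixed block and 20771 with no filter. For 1-3 against 4-6, 1491 became 577 with no filter, and 66 to 2624 when single fractions were left out. For 4-6 against 7-9, 64 became 15 (slide), 120 (normexp), 130 (variance trend) and 4 to 164 (fractions left out). For 7-9 against 10-12, 456 became 15, 693, 1256 and 8 to 2923 in the same order, 66 with median scaling and 73 with no filter. For 10-12 against 13-15, 1116 became 576 (slide), 672 (normexp), 401 (no filter) and 154 to 3597. For the horizontal ends 211 became 5 (slide), 794 (normexp), 866 (variance trend), 0 (no filter) and 0 to 265, and for the sagittal slope 9666 became 2142 (slide) and 15146 (normexp).

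The authors' log2 values changed no call. Slide as a random block and a sagittal middle of 6.5 were chosen after seeing the data, and of the 7 Irx probes 6 and 7 then passed for the sagittal slope. No called difference turned its sign. Among differences that did not pass, Irx5 (0.22) and Irx6 (0.22) between 10-12 and 13-15 turned to -0.08 and -0.04 under normexp and to -0.04 and -0.14 with slide as a block, and the horizontal difference of Irx4 (-0.19) to 0.16 with slide as a block. Leaving out single fractions gave -0.78 to 0.13 for Irx1 between 1-3 and 4-6, -0.39 to 0.06 for Irx4 between 7-9 and 10-12, and between 10-12 and 13-15 -0.34 to 0.14 for Irx4, -0.15 to 0.78 for Irx5 and -0.14 to 0.62 for Irx6. For the horizontal ends it gave -0.02 to 0.70 for Irx3 and -0.65 to 0.15 for Irx4.

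Under normexp the differences of dim probes shrank and the median over the 7 for the coronal ends was 1.52 against 4.16, while the median of all tested probes moved from -0.10 to -0.20. The 10% rostral limit then became fraction 15 for both Irx2 probes, Irx3, Irx5 and Irx6. In all, 11 of 84 limits moved. The median r within clusters ranged from 0.776 to 0.829 and across clusters from 0.812 to 0.849.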
